A study of Mus musculus with 8 samples.

Results

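The interferon gamma inducible GTPases are proteins that cells make in quantity once they receive interferon gamma, and 9 of their genes of 34836 gene names on the array were followed in liver: the guanylate binding protein genes Gbp2, Gbp3, Gbp6 and Gbp7 and the immunity related GTPase genes Igtp, Irgm1, Irgm2, Iigp1 and Ifi47. They were chosen by name, and every array probe that carried one of these names was kept as a separate measurement, which gave 13 probes of 55681. Gene expression had been measured in liver of NZO mice, an obese and diabetes-susceptible strain, and of B6 mice, which stay lean and diabetes-resistant. The NZO group held 4 male NZO/HiBomDife mice and the B6 group 4 male C57BL/6 mice, all 6 weeks old, and both strains received the same diet with 45% fat. Each mouse gave 1 total RNA sample on 1 one-colour Agilent array, so the strains differ in their whole genome and the p-values measure the spread between 4 mice of a strain. Mice are named below by the numbers in their labels, 3, 7, 9 and 11 for NZO and 9, 10, 11 and 15 for B6.

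Interferon gamma comes mainly from natural killer cells and T cells and binds a receptor of the chains Ifngr1 and Ifngr2, which works through the kinases Jak1 and Jak2. The signal acts on genes that carry a DNA element called GAS, and Irf1, a transcription factor that it induces, binds a second element called ISRE. The guanylate binding proteins and the effector GTPases Iigp1, Ifi47 and Tgtp gather on vacuoles that hold intracellular parasites or bacteria and break them open, while the regulators Irgm1, Irgm2 and Igtp sit on the cell's own membranes and keep the effectors from acting there. Hepatocytes, macrophages and endothelial cells can all respond to interferon gamma.

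The promoters were read from the RefSeq table (GRCm38.p6), which held 7 of the 9 genes and, with a second start of Gbp3, 8 windows of 250 bases before to 50 bases after a start. Gbp6 and Iigp1 were not among them. The GAS letters TTCNNNGAA were found in 3 of the 7 genes and in 8.30% of all 32851 windows, and the ISRE letters GAAANNGAAA in 6 of the 7 genes and in 3.44% of all windows, both searched on both strands. Ifi47 and the second start of Gbp3 held neither. The stretches below are shown because Igtp and Irgm2 are neighbours that carry both elements in the same order, and Igtp differed most between the strains. Each is written 5′ to 3′ on the strand of its gene and ends before the start, and capitals mark the letters of the elements, GAS first.
Igtp, chr11:58199499-58199543, plus strand: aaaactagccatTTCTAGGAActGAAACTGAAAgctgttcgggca
Irgm2, chr11:58214890-58214934, plus strand: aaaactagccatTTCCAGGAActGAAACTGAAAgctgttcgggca
Over these 45 bases, 44 were identical, and the difference was T16C, counted from 1 at the 5′ end with the base of Igtp first, which lies in the free middle of the GAS element. In both, the ISRE began 11 bases after the beginning of the GAS. This arrangement was held by 5 of all 32851 windows (0.0152%), and Igtp and Irgm2 are 2 of the genes that held it. The spacing searched was that of these nearly identical stretches, so the share is a description and not a test. The ISRE lay 34 bases before the start in Igtp and 64 in Irgm2.

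The other promoters with an element differed in the order and number of the elements. Gbp7 carried GAS at 2 places and an ISRE on the opposite strand, Gbp3 and Irgm1 carried 2 overlapping ISRE each, and Gbp2 carried 1 ISRE. They are shown to compare the layout, with capitals for the elements.
Gbp7, chr3:142530218-142530304, plus strand: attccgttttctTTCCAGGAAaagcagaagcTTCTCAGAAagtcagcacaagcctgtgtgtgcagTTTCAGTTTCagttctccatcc
Gbp3, chr3:142559987-142560026, plus strand: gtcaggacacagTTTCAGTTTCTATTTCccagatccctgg
Gbp2, chr3:142620592-142620625, plus strand: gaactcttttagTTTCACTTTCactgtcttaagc
Irgm1, chr11:48871423-48871462, minus strand: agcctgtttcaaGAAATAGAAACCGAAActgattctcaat
A match of letters is not a binding site, and the sequence is that of the reference, not of NZO.

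All 9 genes were detected in liver of both strains, since 12 of the 13 probes were well above background on each of the 8 arrays. The exception was the second probe of Gbp7, which was at background on every array and was not tested, while the first probe of Gbp7 was above it on every array. Levels are given as log2 of the processed signal minus the 75th percentile of the array, so that a value of 0 is the level of the probe at that percentile, and levels of different probes cannot be set against each other.

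Igtp and Gbp6 were higher in NZO liver, and the other 7 genes did not pass the test. A probe was called when its Benjamini-Hochberg adjusted p over all 27639 probes tested was at most 0.05 and its log2 fold change was at least 0.7 in either direction. By this rule 3 of the 12 tested probes were called higher in NZO and 0 lower, against 4.33% of all probes called higher and 5.28% called lower. The same 3 probes were the ones in which every NZO array lay above every B6 array, which was so for 11.3% of all probes, and the reverse order was found in 0 of the 12 against 10.7% of all probes. The median log2 fold change of the 12 probes was 0.30, beside 0.014 over all probes. It was above 0 in 11 of the 12, beside 14267 of all 27639 probes tested. The 12 probes were read on the same arrays and several belong to the same gene, so they are not independent. With the deposited table as given each of the 12 values was lower, and Ifi47 and Irgm2 fell below 0. The median over all probes was -0.15 there. At an unadjusted p of 0.05 with the same fold change the counts stayed at 3 and 0.

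**Figure D1:**
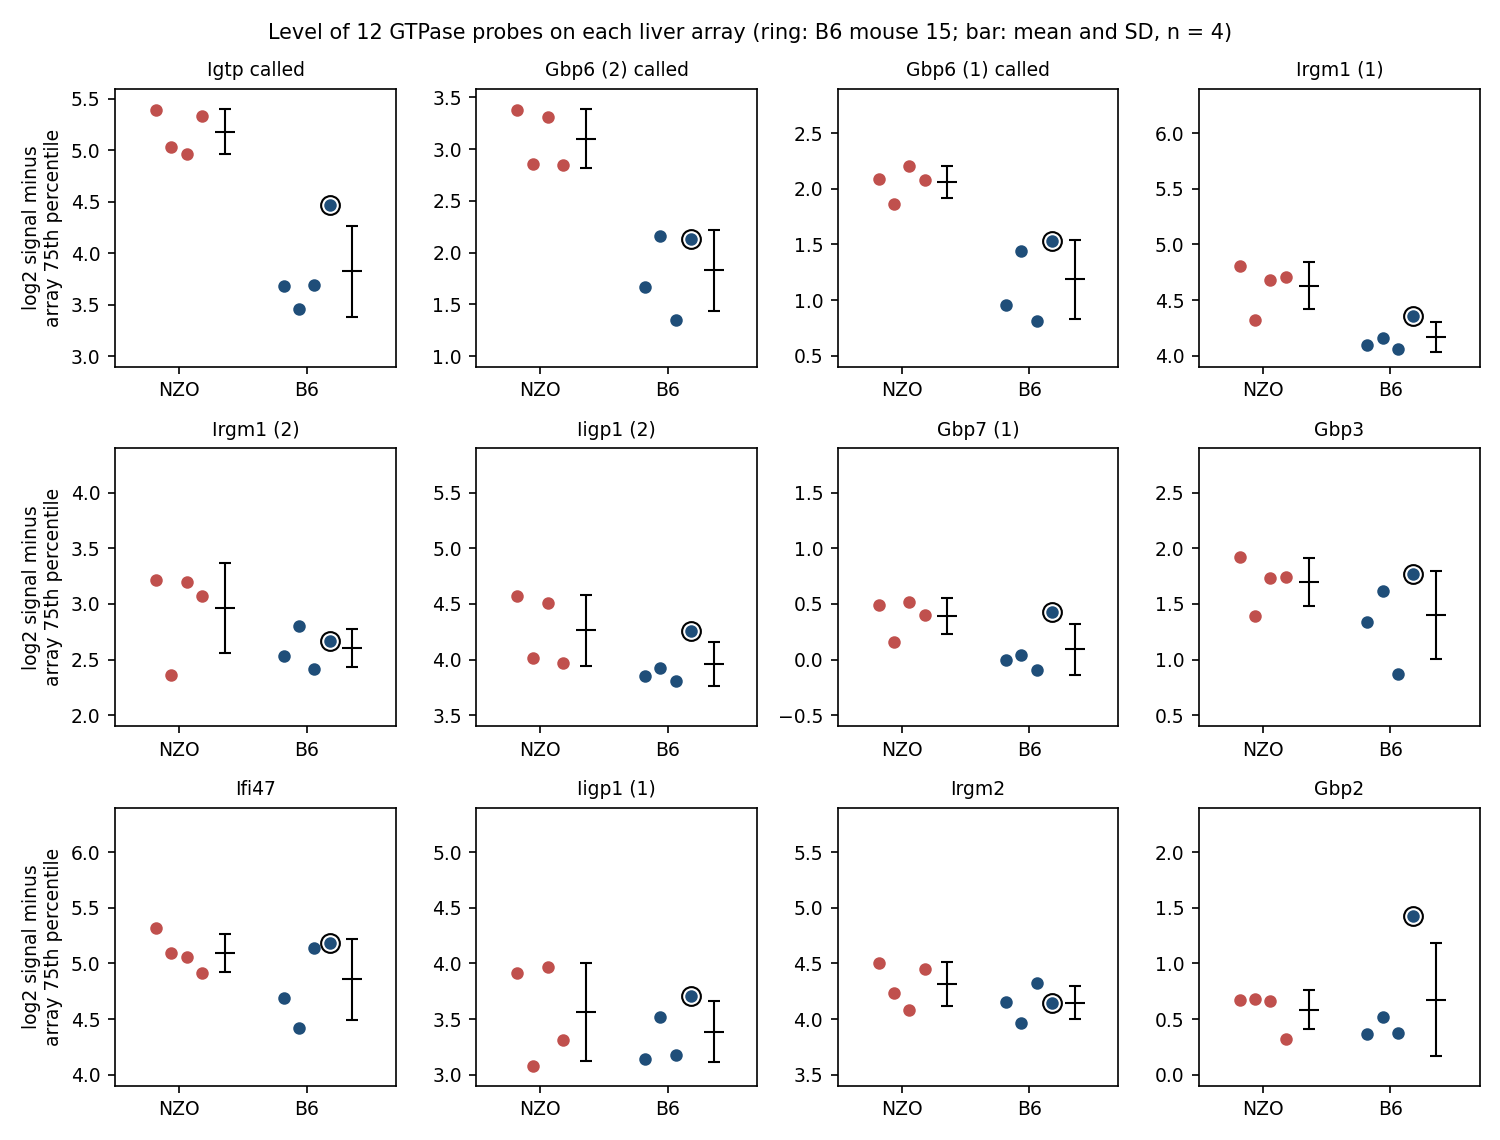
Level of each tested probe of the 9 genes, as log2 signal minus the 75th percentile of the array, with 1 point per mouse, NZO in red and B6 in blue, and the mean and SD of 4 mice beside them; panels run from the largest to the smallest strain difference and numbers in brackets tell probes of one gene apart. The 4 NZO mice lie above the 4 B6 mice for Igtp and both probes of Gbp6, and the ringed B6 mouse 15 is the highest B6 mouse in 9 of the 12 panels.

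Igtp, one of the regulators and also known as Irgm3, had the largest difference of the 12 probes. Its level in NZO mice 3, 7, 9 and 11 was 5.39, 5.03, 4.96 and 5.34, and in B6 mice 9, 10, 11 and 15 it was 3.69, 3.46, 3.69 and 4.47. The groups did not overlap, although B6 mouse 15 came closer to the NZO mice than the other three B6 mice did. The probe was spotted 10 times on each array, and the SD between its spots ranged from 0.035 to 0.094, below the SD between mice of 0.22 in NZO and 0.44 in B6. These spots hold the same probe, so their SD cannot tell whether bases that differ between the strains lie under it. That was not examined, for Igtp or for Gbp6. The mean was 2.56-fold higher in NZO, a log2 fold change of 1.35 ± 0.22 (SE, n = 4 per strain, limma adjusted p = 0.00471).

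The difference for Igtp was 1.27 within the first scan day, which held 3 NZO and 2 B6 arrays, 1.34 within the second, with 1 NZO and 2 B6 arrays, and 1.43 within the 1 slide that held both strains. A fit that included the slide as a fixed effect gave the same 1.43, and Igtp was not called by it. Its strain difference rests on that slide alone, with NZO mouse 3 against B6 mice 10 and 15. Calls lost and signs changed with a slide term, here and below, are read from those mice. They do not measure an effect of the slide on the whole comparison. Leaving out each mouse in turn gave 1.23 to 1.57 with adjusted p-values from 0.00073 to 0.0183.

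Irgm2, the neighbour of Igtp on chromosome 11 (start 58214977, and 7384 bases after the end of Igtp), is a regulator of the same kind. Its level was 4.51, 4.23, 4.08 and 4.45 in NZO mice 3, 7, 9 and 11 and 4.16, 3.96, 4.32 and 4.14 in B6 mice 9, 10, 11 and 15. The strains overlapped, with a log2 fold change of 0.17 ± 0.13 and a 95% interval from -0.13 to 0.47. Leaving out each mouse in turn gave 0.11 to 0.25. To compare the neighbours, the log2 level of Irgm2 was subtracted from that of Igtp on each array. The level of this quantity has no meaning of its own, since it joins different probes, but it can be set between arrays, and B6 mouse 15 lay between the NZO mice and the other three B6 mice. The shift between the strains was 1.18, given as a description with no test, since this pair was chosen after its values had been seen.

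Irgm1, the third regulator, lies at another place on chromosome 11 (48865245 to 48871420). Its first probe read 4.81, 4.32, 4.68 and 4.71 in NZO mice 3, 7, 9 and 11 and 4.10, 4.16, 4.05 and 4.36 in B6 mice 9, 10, 11 and 15. Only NZO mouse 7 fell inside the B6 range. The log2 fold change was 0.46 ± 0.13 (95% interval 0.16 to 0.76, limma adjusted p = 0.0528), short of both thresholds, and 0.56 without NZO mouse 7 (adjusted p = 0.0148). The second probe gave 0.36 ± 0.20 with an adjusted p of 0.297, and NZO mouse 7 was again the lowest NZO mouse, at 2.36 against 3.07 to 3.22. Without this mouse the second probe gave 0.56 (limma adjusted p = 0.0238), still short of the fold change threshold.

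Among the effectors, neither Iigp1 nor Ifi47 differed beyond the spread between mice. The first probe of Iigp1, the best studied of them, read 3.91, 3.08, 3.97 and 3.31 in NZO mice 3, 7, 9 and 11 and 3.14, 3.52, 3.18 and 3.70 in B6 mice 9, 10, 11 and 15. The 2 probes of Iigp1 gave log2 fold changes of 0.18 ± 0.23 and 0.30 ± 0.18, with 95% intervals from -0.36 to 0.72 and from -0.11 to 0.71. The first moved from 0.048 without NZO mouse 9 to 0.34 without NZO mouse 7, and the second from 0.20 to 0.40, without NZO mouse 3 and NZO mouse 11. Ifi47, also called Irgd, had a log2 fold change of 0.24 ± 0.19 (95% interval -0.19 to 0.67), and B6 mice 11 and 15 (5.14 and 5.18) lay within the NZO range of 4.91 to 5.32. Leaving out each mouse in turn gave 0.094, without B6 mouse 10, to 0.35, without B6 mouse 15.

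Of the guanylate binding proteins, which coat vacuoles and bacteria, Gbp6 was higher in NZO by both probes that carry its name, of which the first lists Gbp6 alone and the second also Gbp10. The first probe read 2.09, 1.87, 2.21 and 2.08 in NZO mice 3, 7, 9 and 11 and 0.96, 1.44, 0.81 and 1.53 in B6 mice 9, 10, 11 and 15. The second read 3.38, 2.86, 3.31 and 2.85 in NZO and 1.67, 2.16, 1.35 and 2.13 in B6, in the same order of mice. In both probes the 4 NZO mice lay above the 4 B6 mice. The first gave a log2 fold change of 0.88 ± 0.18 (1.84-fold, limma adjusted p = 0.0132) and the second 1.27 ± 0.22 (2.41-fold, adjusted p = 0.00593).

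Within the scan days the difference of the first Gbp6 probe was 0.64 and 0.98, and that of the second was 1.03 and 1.34. A fit that included the slide gave 0.61 and 1.23, with adjusted p-values of 0.15 and 0.0727. The call of the first was also lost in the deposited table (0.64). Gbp10 and Gbp6 follow each other on chromosome 5 (Gbp10 from 105215699 to 105239533, Gbp6 from 105270702 to 105295871). The probe named for Gbp10 also lists Gbp6, and it had a log2 fold change of 0.65 ± 0.15 (adjusted p = 0.0243), below the threshold of 0.7, with 4 NZO mice above 4 B6 mice. This probe passed both thresholds without B6 mouse 15 (0.71, limma adjusted p = 0.0389) and had 0.33 in the deposited table (adjusted p = 0.134). The second Gbp6 probe and the Gbp10 probe cannot separate the 2 genes.

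The other 3 members of this family lie together on chromosome 3 (142530336 to 142638008) and did not pass the test. Gbp2 read 0.68, 0.68, 0.66 and 0.32 in NZO mice 3, 7, 9 and 11 and 0.37, 0.52, 0.38 and 1.43 in B6 mice 9, 10, 11 and 15. It was the single probe of the 12 with a higher mean in B6, and its log2 fold change was -0.09 ± 0.24 with B6 mouse 15 and 0.16 without it (limma adjusted p = 0.848 and 0.474). Gbp3 had a log2 fold change of 0.30 ± 0.21 with NZO levels from 1.40 to 1.92 and B6 levels from 0.87 to 1.77, and ranged from 0.12 without B6 mouse 11 to 0.42 without B6 mouse 15. The first probe of Gbp7 had 0.30 ± 0.14, with NZO levels from 0.16 to 0.52 and B6 levels from -0.09 to 0.43.

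**Figure D2:**
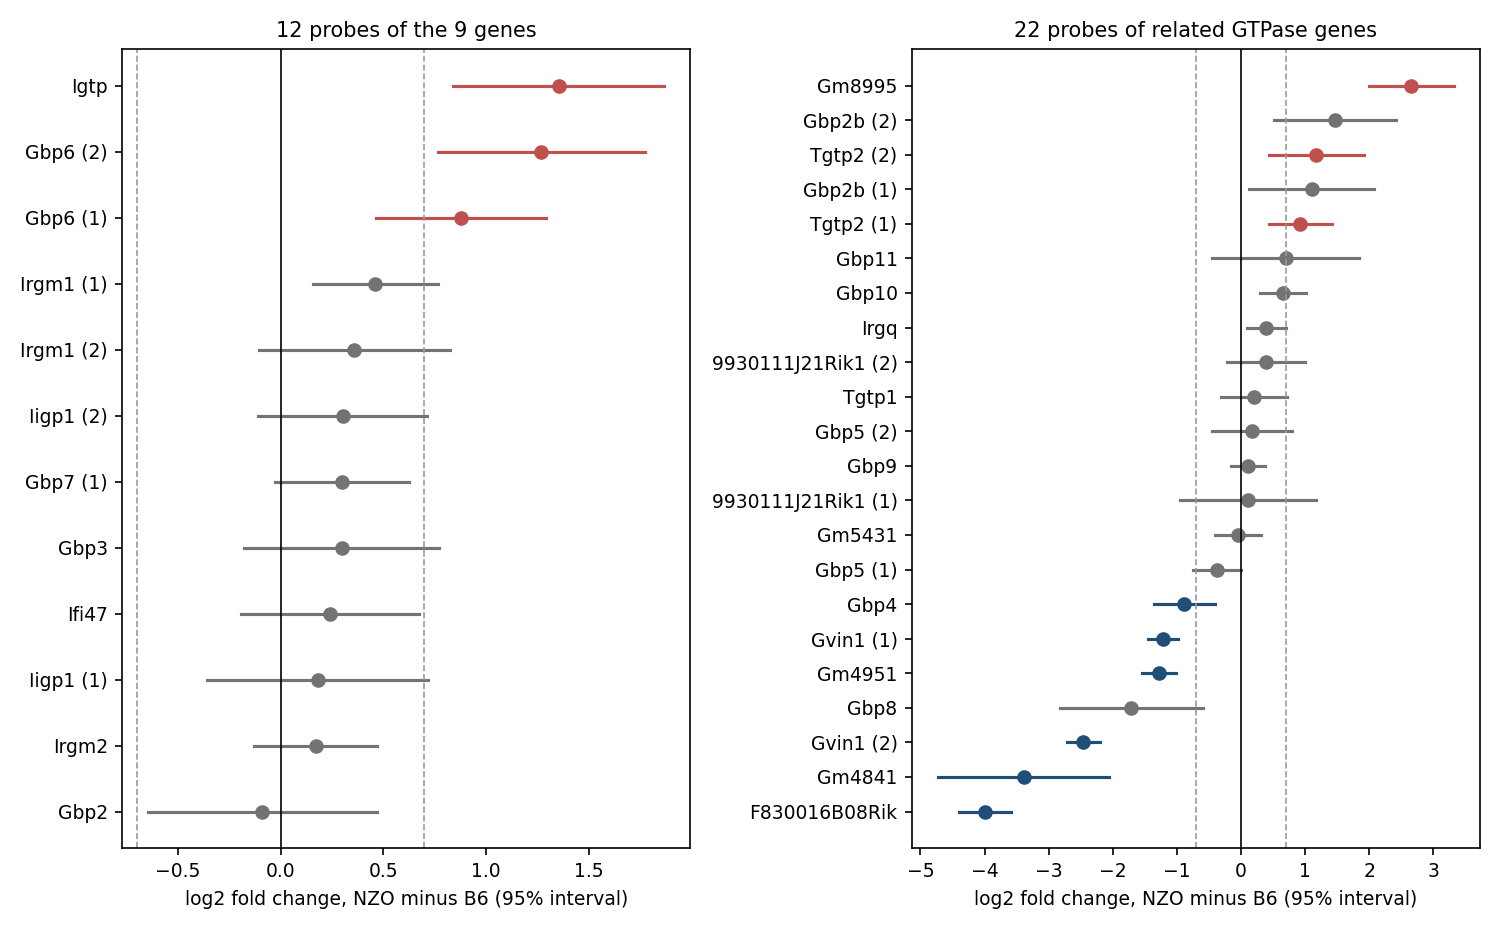
Log2 fold change of NZO minus B6 with its 95% interval for the 12 tested probes of the 9 genes (left) and the 22 tested probes of related GTPase genes (right); red and blue mark probes called higher and lower in NZO, and dashed lines mark 0.7 in either direction. The 3 red probes on the left are Igtp and both probes of Gbp6, while the related genes have 3 probes called higher and 6 called lower. The axes of the 2 panels have different scales.

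The mice of a strain differed in many of these genes at once. B6 mouse 15 was the highest B6 mouse in 9 of the 12 probes and the lowest in 0, and lay on average 0.33 above its strain mean on the log2 scale. NZO mouse 3 was the highest NZO mouse in 8 of the 12 probes, with an average of 0.20 above its strain mean, and NZO mouse 7 was the lowest in 6, with an average of -0.23. B6 mouse 11 was the lowest B6 mouse in 7 probes, with an average of -0.18. NZO mouse 3 and B6 mice 10 and 15 shared a slide.

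**Figure D3:**
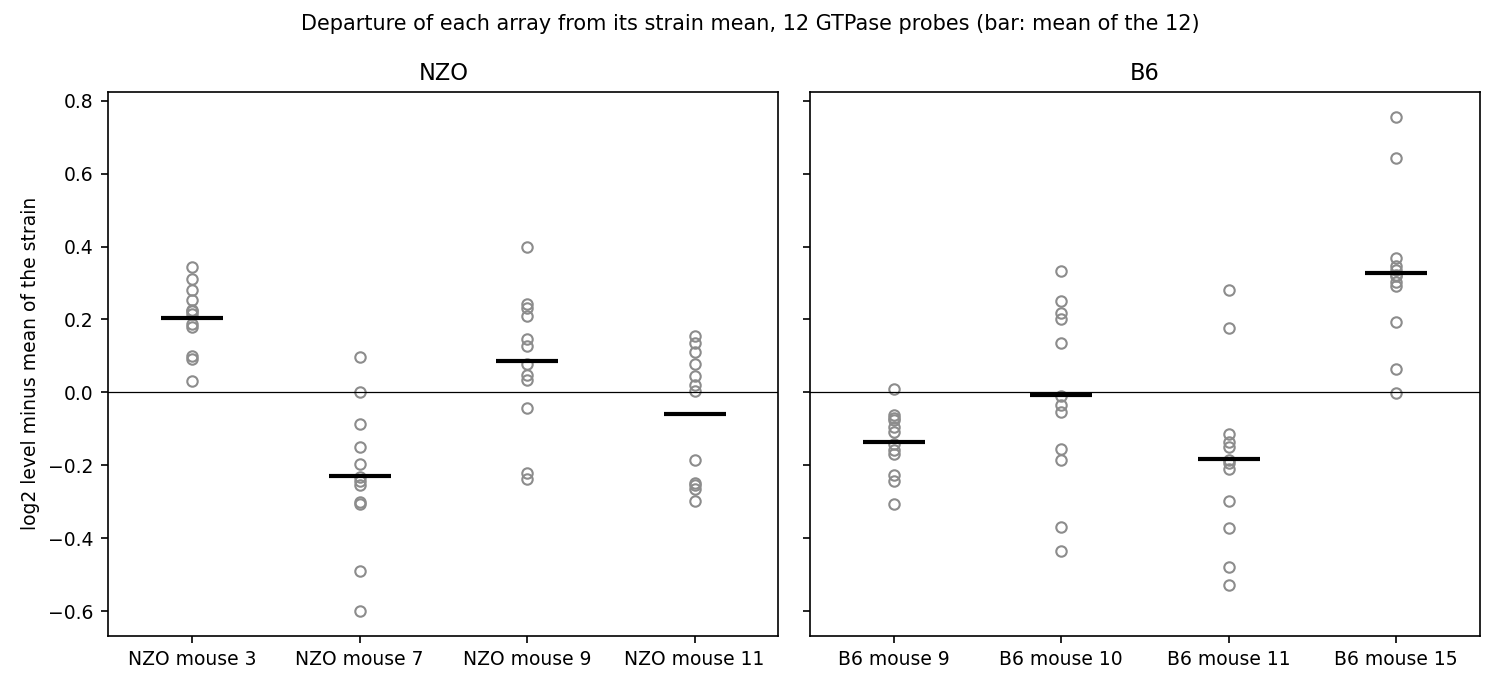
Log2 level of each of the 12 tested probes minus the mean of its strain, by mouse, with a bar at the mean of the 12. The bar lies 0.33 above the strain mean for B6 mouse 15 and 0.20 above it for NZO mouse 3, and at -0.23 and -0.18 for NZO mouse 7 and B6 mouse 11.

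With the strain mean removed, Gbp7 followed the mean of the other genes most closely over the 8 arrays, with r = 0.95, and Irgm2 least, with r = -0.08. The values of Irgm1 were 0.83 and 0.58, of Iigp1 0.81 and 0.82, of Gbp3 0.80, of Gbp6 0.71 and 0.72, of Gbp2 0.68, of Igtp 0.62 and of Ifi47 0.27. The arrays are shared by all of them, so that a common shift of 1 array enters every r. Of 24435 other probes above background on all arrays, the median r with the mean of the 12 was 0.099. The highest was that of H2-Bl, a class I histocompatibility gene, with r = 0.987, followed by the file names HQ258995, Eif4a3, A_55_P2102181, NP883496, Iah1, Pgpep1, Tle4, Ccdc47 and A_55_P1980548, with r down to 0.972. These are the highest of 24435 values over 8 arrays. How high such values run by chance was not tested, and no link between the genes is read from them.

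The related GTPases moved in both directions between the strains. Of 26 further gene names of both families, 20 were on the array with 26 probes, of which 22 were tested. In NZO 3 probes were called higher and 6 lower, beside 4.33% and 5.28% of all probes, with a median log2 fold change of 0.14. The probes called higher were both probes of Tgtp2 and that of Gm8995. The probes called lower were those of Gbp4, Gm4951, Gm4841 and F830016B08Rik and both probes of Gvin1.

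Tgtp2 is an effector that loads onto parasite vacuoles, and its brighter probe read 5.37, 5.23, 5.22 and 5.13 in NZO mice 3, 7, 9 and 11 and 3.58, 3.77, 3.75 and 5.15 in B6 mice 9, 10, 11 and 15. B6 mouse 15 was thus inside the NZO range while the other three B6 mice were well below it. The log2 fold change was 1.17 ± 0.32 (limma adjusted p = 0.0464) with all mice and 1.53 without B6 mouse 15, and the call was lost with quantile normalization (adjusted p = 0.0588), with a scan day term (0.0633) and with a slide term (0.439). The second probe gave 0.93 ± 0.21 (adjusted p = 0.0223) and 1.15 without that mouse, and its call was lost with normexp (0.33), in the deposited table as given (0.24) and with a slide term (0.62, adjusted p = 0.44). The listed accessions of the Tgtp1 and Tgtp2 probes name both genes, and the probe named Tgtp1 gave 0.20 ± 0.22, so the probes disagree on the size of the change.

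Gbp2b, known in mice also as Gbp1, showed the same mouse standing apart. Its 2 probes read -2.09 and -1.53 in B6 mouse 15, beside NZO means of -2.32 and -1.45, and lay between -3.96 and -3.25 in the other three B6 mice. The log2 fold changes were 1.1 ± 0.42 and 1.46 ± 0.41 (limma adjusted p = 0.134 and 0.0513), and without B6 mouse 15 they were 1.55 and 1.92 (adjusted p = 0.00428 and 0.000246). With normexp and all mice they were 0.33 and 0.58. Without that mouse 6 probes of the related genes were called higher in place of 3, with both probes of Gbp2b and that of Gbp10 added. The number called lower was 5 in place of 6, as Gbp4 then fell just below the fold change threshold at -0.69.

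The neighbours of Iigp1 on chromosome 18 changed the other way from Igtp and Gbp6. Gm4951 (60212004 to 60248440), Gm4841 (60268301 to 60273267) and F830016B08Rik (60288739 to 60303823) are immunity related GTPase genes that precede Iigp1 (60373616 to 60392634). F830016B08Rik read -2.59, -3.47, -2.98 and -3.03 in NZO mice 3, 7, 9 and 11 and 1.02, 0.88, 0.92 and 1.08 in B6 mice 9, 10, 11 and 15, a log2 fold change of -3.99 ± 0.18 (limma adjusted p = 4.06e-06), which was -2.03 with normexp and -2.88 in the deposited table. Gm4951 had a log2 fold change of -1.28 ± 0.11 (adjusted p = 0.000164). Gm4841 was not well above background in the 4 NZO mice and was above it in the 4 B6 mice. On the scale used here it was at least 2.83-fold lower in NZO (limma adjusted p = 0.00572), a bound that other processing did not keep. The log2 fold change was -0.40 with the normexp background correction (adjusted p = 0.235) and -0.999 in the deposited table (adjusted p = 0.0194). The call was lost with normexp and with a slide term. Gm4841 was tested because of its B6 arrays, and it is one of the 6 probes called lower. The bound sets each NZO array to the larger of its reading and the lowest level that was above background on that array.

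Gvin1, a very large interferon inducible GTPase on chromosome 7, was lower in NZO by both probes, with log2 fold changes of -2.46 ± 0.11 and -1.22 ± 0.10, and both also list Gm4070. Gm8995, on the same chromosome, was higher with 2.66 ± 0.29 (limma adjusted p = 0.000535), which was 1.14 with normexp and 1.39 in the deposited table, and the call was lost with a slide term (adjusted p = 0.0693). Gbp4 was lower with -0.88 ± 0.21 (adjusted p = 0.025), a call lost with normexp (-0.56) and with a slide term (adjusted p = 0.167). Gbp8 was above background on 2 of 4 NZO arrays and was tested because of its B6 arrays, and its log2 fold change was -1.71 (adjusted p = 0.0517) and -0.18 with normexp (adjusted p = 0.372). Gbp11 had 0.69 ± 0.50 and Gbp9 0.11 ± 0.12. The 2 probes of Gbp5 gave -0.38 and 0.17. Irgq had 0.39 ± 0.13, the tested probe of Gm5431 -0.05 ± 0.15, and the 2 probes of 9930111J21Rik1 0.11 ± 0.46 and 0.39 ± 0.27. Whether bases that differ between the strains lie under these probes, or under those of the 9 genes, was not examined.

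Of the genes that make and carry the interferon gamma signal, 1 probe was called. Of 31 probes for 23 genes 22 were tested, 0 were called higher in NZO and 1 lower, beside 5.28% of all probes called lower, with a median log2 fold change of -0.17. In 4 of the 22 every NZO mouse lay below every B6 mouse, beside 10.7% of all probes. The ligand gene Ifng was not well above background on 7 of 8 arrays and was above it in B6 mouse 15, where it read -3.61 against -5.38 to -4.80 in the other three B6 mice. The receptor chains Ifngr1 and Ifngr2 had log2 fold changes of 0.01 ± 0.11 and -0.16 ± 0.16, and the kinases Jak1 and Jak2 -0.25 ± 0.10 and -0.06 ± 0.11. Irf1, the inducer of many of these GTPases, read 3.57 to 3.80 in NZO and 3.59 to 3.93 in B6, a log2 fold change of -0.09 ± 0.11 with a 95% interval from -0.34 to 0.16.

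The probe called lower was Irf8, a factor of macrophages and dendritic cells, with 0.73, 0.83, 0.56 and 0.71 in NZO mice 3, 7, 9 and 11 and 1.38, 1.17, 1.54 and 1.74 in B6 mice 9, 10, 11 and 15. Its log2 fold change was -0.75 ± 0.14 (limma adjusted p = 0.00761), and -0.66 without B6 mouse 15, below the fold change threshold. Irf2, which competes with Irf1 for the ISRE, had -0.66 ± 0.11 (adjusted p = 0.00455) with the 4 NZO mice below the 4 B6 mice, short of the fold change threshold. The inhibitors Socs1 and Socs3 had -0.46 ± 0.20 and -0.23 ± 0.26 and did not pass the test, and Socs1 had -0.03 with normexp, while Socs3 turned to 0.28 with a slide term. No direction is read from values that did not pass the test. With a slide term other such values also changed sign, among them Jak2 (0.14), Il12rb2 (-0.59) and a probe of Pias1 (0.021). Gbp9 (-0.063), a probe of Gbp5 (-0.62), a probe of 9930111J21Rik1 (-0.49) and Tap1 (0.042), which is named below, did so too. The other inhibitors, Ptpn2 with 0.10 and 0.13, Ptpn11 with 0.24 and the 3 probes of Pias1 from -0.21 to -0.18, did not pass the test. Of the genes that raise interferon gamma, Il18 had -0.30 ± 0.11, its inhibitor Il18bp 0.32 ± 0.14, and the receptor genes Il12rb1 0.61 and -0.35 and Il12rb2 0.08. Tbx21 was above background on 1 of 4 NZO arrays and was tested because of its B6 arrays, with levels of -4.08 to -3.63 in NZO and -3.72 to -2.60 in B6 (limma adjusted p = 0.158), and its log2 fold change of -0.57 turned to 0.045 with normexp.

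Other known targets of interferon gamma were mixed. Of 28 probes tested 2 were called higher in NZO and 4 lower, beside 4.33% and 5.28% of all probes, with a median of -0.08. Ly6a, a surface protein of stem cells and lymphocytes, had the largest change, at 4.45 to 5.51 in NZO and 1.13 to 1.85 in B6 (log2 fold change 3.31 ± 0.27). Tap2, which carries peptides to class I molecules, had 1.1 ± 0.097, while its partner Tap1 had -0.06. Trim21, a ubiquitin ligase, had -1.38 ± 0.11, Nlrc5, the activator of class I genes, -1.12 ± 0.19 by one probe and 0.54 by the other, and Slfn2 -0.78 ± 0.18. The call of Slfn2 was lost with normexp (-0.35, limma adjusted p = 0.0542), with median scaling (adjusted p = 0.0722) and without B6 mouse 15 (-0.66). The brightest probe was one of Cxcl11, with -0.04 ± 0.16. Without B6 mouse 15 the number called lower was 2 and the number called higher was 3, with Psmb8, a subunit of the immunoproteasome, added (0.77, limma adjusted p = 0.00426).

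Targets of type I interferon, an alternative inducer of several of these GTPases, had 10 of 32 tested probes called higher in NZO and 1 lower, beside 4.33% and 5.28% of all probes, with a median of 0.34. The largest were Mx1, a dynamin-like antiviral GTPase, with 2.55 ± 0.19, Ifit1 with 1.96 ± 0.20 and Eif2ak2, a kinase that senses double-stranded RNA, with 1.29 ± 0.09. Mx2 was called lower, with levels of -5.43 to -3.68 in NZO and 1.07 to 1.55 in B6. It was above background on 1 of 4 NZO arrays and was tested because of its B6 arrays, so that the size of the change is not known, and the log2 fold change was -2.49 with normexp and -3.61 in the deposited table. The brightest probe, of Bst2, had -0.38 ± 0.10. With the deposited table as given the number called higher was 5, and with a slide term 3 of the 10 were still called, those of Mx1, Ifit1 and Eif2ak2 (limma adjusted p = 0.0307, 0.0389 and 0.0346). Of the vacuole and autophagy partners of the GTPases, 22 probes were tested, 0 were called higher and 1 lower, which was Trim21 again, beside 5.28% of all probes, with a median of 0.12 and Gabarapl1 as the brightest probe (-0.49 ± 0.13).

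**Figure D4:**
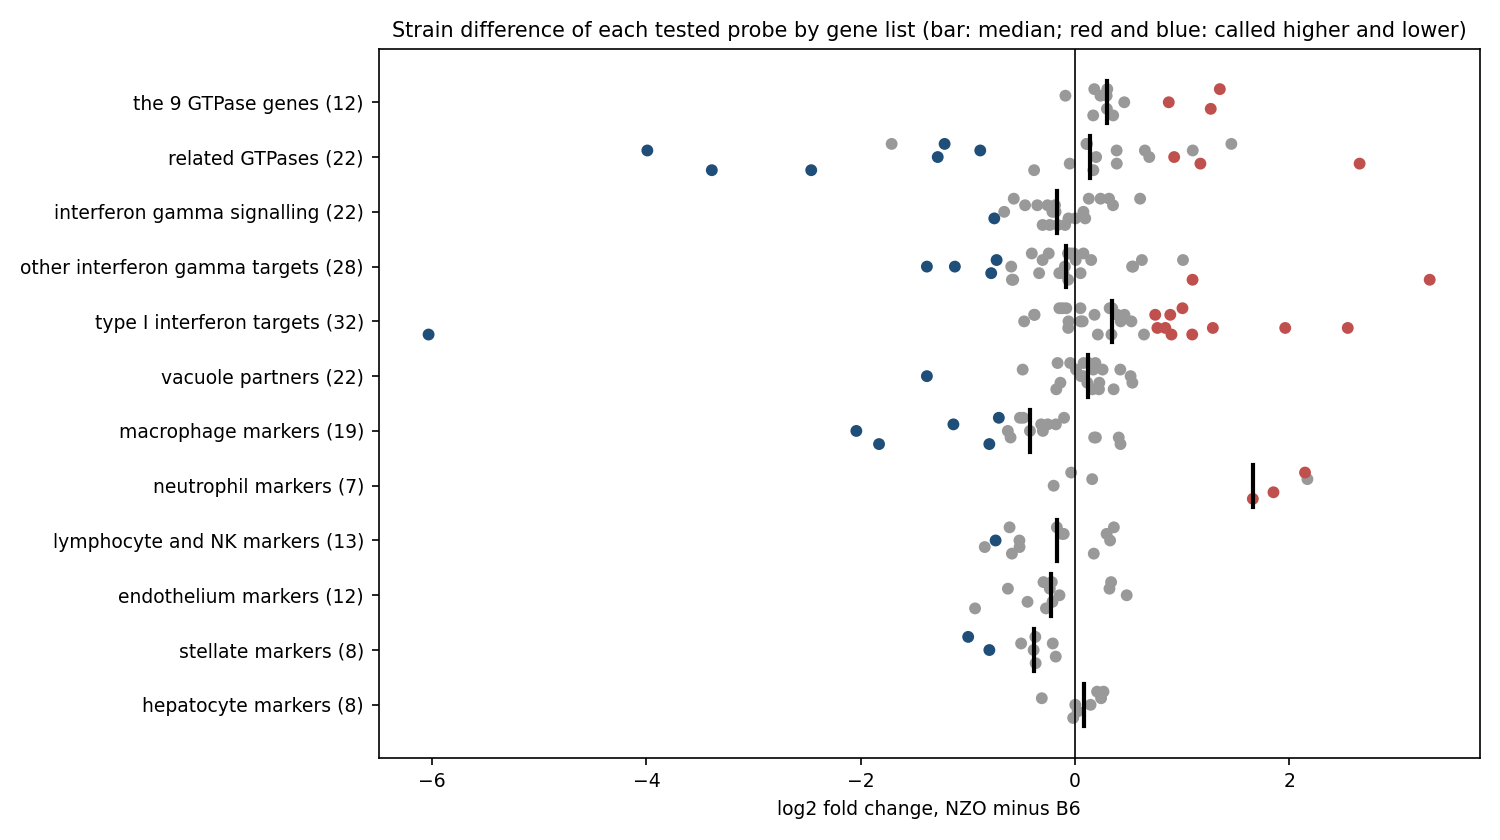
Log2 fold change of NZO minus B6 for every tested probe of each gene list, with a bar at the median of the list, the number of probes in brackets, and red and blue for probes called higher and lower. The medians are 0.30 for the 9 GTPase genes, 0.34 for the type I interferon targets, -0.17 for the interferon gamma signalling genes and -0.42 for the macrophage markers. They are 1.66 for the neutrophil markers and -0.38 for the stellate cell markers.

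The samples were whole liver, in which fewer cells of a type and less RNA per cell cannot be told apart. The hepatocyte markers, among them Alb at 10.66 to 11.24 on the 8 arrays, were above background in every mouse, and 0 of their 8 probes were called, with a median log2 fold change of 0.086. In 4 of the 8 every NZO mouse lay above every B6 mouse, beside 11.3% of all probes. The summed signal of the list, in units of the 75th percentile, was 7473, 7284, 7053 and 7212 in NZO mice 3, 7, 9 and 11 and 5817, 6714, 6050 and 6725 in B6 mice 9, 10, 11 and 15, so that it was higher in each NZO mouse than in each B6 mouse, as Igtp and Gbp6 were. Its part in their differences was not tested. Of the macrophage markers 19 probes were tested, 0 were called higher in NZO and 5 lower, beside 4.33% and 5.28% of all probes, with a median of -0.42. Marco and Clec4f, markers of the Kupffer cells of the liver, had -1.83 ± 0.36 and -1.13 ± 0.13, and Cd5l, the brightest, had -0.71 ± 0.11, which fell short of the fold change threshold with median scaling (-0.64) and without B6 mouse 15 (-0.65). Itgax had -2.04 ± 0.53 with 2 of 4 NZO arrays above background, so that it was tested because of its B6 arrays, and its call was lost with normexp (-0.37, limma adjusted p = 0.0698) and without B6 mouse 15 (adjusted p = 0.091). The summed signal of the list was 160, 162, 137 and 142 in NZO mice 3, 7, 9 and 11 and 202, 219, 248 and 295 in B6 mice 9, 10, 11 and 15. Without B6 mouse 15 the number called lower was 3. A log2 fold change above 0 was found in 4 of the 19 probes, and none of these was called. The part of these cells in these differences was not tested.

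Some neutrophil markers were higher in NZO, as Igtp and Gbp6 were. Of 7 tested probes 3 were called higher in NZO and 0 lower, beside 4.33% and 5.28% of all probes, with a median log2 fold change of 1.66. They were both probes of Camp with 2.15 ± 0.28 and 1.85 ± 0.44, and Ly6g with 1.66 ± 0.18. The first Camp probe had 1.21 with normexp and 1.37 in the deposited table. S100a9, the brightest, had -0.20 ± 0.48, and S100a8 -0.03, while a probe of Mpo and that of Ngp were at or near background. The other probe of Mpo was tested because of its NZO arrays, with 2 of 4 B6 arrays above background, and read -2.04 to -1.39 in NZO and -5.87 to -1.56 in B6, where B6 mouse 15 was the highest. It did not pass the test (limma adjusted p = 0.127, and 0.0132 without B6 mouse 15), and its log2 fold change was 2.17, or 0.58 with normexp. The summed signal of the list was 16.1, 12.8, 11.9 and 16.1 in NZO mice 3, 7, 9 and 11 and 7.10, 5.66, 11.1 and 13.3 in B6 mice 9, 10, 11 and 15. The part of these cells was not tested either.

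Lymphocyte and natural killer cell markers had 13 tested probes, of which 0 were called higher and 1 lower, beside 5.28% of all probes, Thy1 with -0.74 ± 0.17. This call was lost with normexp (-0.36), with median scaling (-0.67), in the deposited table (-0.68) and without B6 mouse 15 (-0.67). The brightest was a probe of Cd4 with 0.30 ± 0.24, and both probes of Klrb1c and that of Ncr1 were at background in all NZO mice. One probe of Klrb1c was above background in B6 mouse 15, at -0.66 against -6.17 to -5.13 in the other three B6 mice. Endothelial markers had 12 tested probes, 0 called higher and 0 lower, beside 4.33% and 5.28% of all probes. Clec4g was the brightest (-0.23 ± 0.16, and 0.20 with a slide term). A probe of Stab2 with -0.93 was called lower with normexp (-0.72, limma adjusted p = 0.0259) and in the deposited table (-1.03, adjusted p = 0.00986). Stellate cell markers had 8 tested probes, 0 called higher and 2 lower, beside 5.28% of all probes, Pdgfrb with -0.996 ± 0.10 and Col3a1 with -0.80 ± 0.21, and Dcn was the brightest (-0.37 ± 0.11). Pdgfrb was not called with normexp (-0.53), and Col3a1 was not called with median scaling (limma adjusted p = 0.0872) or without B6 mouse 15 (-0.67).

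Of the calls named above for genes outside the GTPase families, with a slide term those of Irf8, Tap2, Nlrc5, Slfn2, Marco, Clec4f, Cd5l, Itgax, Thy1, Pdgfrb, Col3a1 and both probes of Camp were lost, with limma adjusted p-values from 0.0638 for Tap2 to 0.361 for Col3a1. With a scan day term those of Itgax and Col3a1 were lost (adjusted p = 0.055 and 0.0548).

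B6 mouse 15 was the highest B6 mouse in more than 25% of the probes of most gene lists, interferon related or not. It was so in 77.3% of the tested probes of the related GTPases, 68.8% of the type I interferon targets, 67.9% of the other interferon gamma targets, 50% of the signalling genes, 18.2% of the vacuole partners, 68.4% of the macrophage markers, 71.4% of the neutrophil markers, 61.5% of the lymphocyte and natural killer cell markers, 62.5% of the hepatocyte markers, 25% of the stellate cell markers and 0% of the endothelial markers, beside 25% of all probes. Cxcl9, a chemokine induced by interferon gamma, read 2.61 by its brighter probe in this mouse and 1.12 to 1.37 in the other three B6 mice. Without this mouse the log2 fold change of Igtp was 1.57, that of the Gbp6 probes 0.99 and 1.37, and the 3 calls held.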

How the data were processed

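Scanner files and a joint table were deposited. Per the file headers, the intensity values come from Agilent Feature Extraction 11.0.1.1 (the submitters' processing notes give 9.1). The processed signal is an intensity that has been corrected for background on its own array and not yet scaled across arrays. The deposited joint table equalled the raw median intensity at all 59305 spots of each array (tolerance 0.01).

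Control spots and 96 to 137 outlier spots per array were left out, log2 was taken, the 75th percentile subtracted (119 to 142 in NZO, 136 to 159 in B6, linear intensity) and spots of a probe averaged. Between 50.4% and 60.1% of spots were well above background and 0 were saturated, and the number of arrays limits the precision. Probes were tested where either strain had 4 of 4 arrays well above background, with limma 3.58.1 in R 4.3.3, without a block, and the fit was tested on simulated data. Python 3.11.15 with matplotlib 3.10.9 searched the promoters and drew the plots. Gene names are those of the array files, positions those of RefSeq (GRCm38.p6).

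The 9 genes and all lists were chosen with earlier results of these data known. All probes of the 9 genes, all tested probes of the related GTPases and of the signalling genes, and of each other list the 3 strongest calls in each direction and the brightest probe are named. The values of 1 signalling gene are not reported here, and it is part of the counts and the median of its list. Additional genes named are Tap1, S100a8, Mpo, Ngp, Klrb1c, Ncr1 and Cxcl9, picked after their values were seen. The numbers 9 and 11 occur in both strains and do not pair mice. Alternatives were the background correction (normexp), quantile or median scaling, the deposited table, 2 filters, slide, scan day, mouse number, the methods' t-test, unadjusted thresholds, another variance model and leaving out each mouse. Counts for the lists without B6 mouse 15 and under other scalings were added after seeing the data.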

Additional observations from a re-analysis of the deposited data

Results flagged for a closer look

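In 114 groups of 4 arrays (each probe of the 9 genes, and each tested probe of the related GTPases and of the signalling genes, per strain), 8 held a mouse whose gap to the nearest other mouse exceeded Dixon's 95% critical share of the range of the group, which chance gives in about 1 of 20 groups. B6 mouse 15 accounted for 4 of them, all on the high side: Gbp2 at 1.43 (next 0.52), the 2 probes of Gbp2b at -2.09 (next -3.79) and -1.53 (next -3.25), and the brighter probe of Tgtp2 at 5.15 (next 3.77). Gbp2 in NZO mouse 11 was low at 0.321 (next 0.66), and the second probe of Irgm1 in NZO mouse 7 was low at 2.36 (next 3.07). Gm4841 in NZO mouse 3 read -4.95 (next -6.15), where all 4 NZO arrays were not well above background. Socs3, an inhibitor of the signal, was low in B6 mouse 10 at 0.315 (next 1.30).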

How the results depend on the processing

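The 3 calls (Igtp and both probes of Gbp6) held in 18 of 20 alternatives for Igtp and for the second probe of Gbp6 and in 16 of 20 for the first. With the slide as a fixed term 0 of the 12 probes were called, and with the mouse number as a replicate block also 0, where both numbers that the strains share leave few degrees of freedom. The slide term compares the strains on 1 slide alone, with NZO mouse 3 against B6 mice 10 and 15. Deviations of same-numbered mice correlated at -0.26 and -0.0041. The block gave log2 fold changes of 1.46 for Igtp and of 1.26 and 1.57 for Gbp6. The first probe of Gbp6 was also lost in the deposited table (0.64) and by the methods' t-test after adjustment (0.88, adjusted p = 0.0813). Gbp2 turned from -0.09 to 0.12 under the replicate block and ranged from -0.19 to 0.16 when each mouse was left out, being above 0 without B6 mouse 15. The deposited table shifted the median of all probes to -0.15, and Ifi47 (-0.029) and Irgm2 (-0.061) turned below 0 there.

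Over all probes, 1198 were called higher and 1460 lower (45.1% of calls higher). Those higher were 615 with normexp, 575 with the deposited table, 497 with the slide term and 72 with the replicate block. Those lower were 583 with normexp, 963 with probes above background on all arrays, 134 with the replicate block and 890 with the methods' t-test. The share higher was 28.8% with the deposited table, 33.6% with the slide term and 35.0% with the replicate block. Of the lists, related GTPases called higher ranged from 2 to 6 and lower from 4 to 7 over the scalings and without B6 mouse 15, macrophage calls lower ranged from 3 (without B6 mouse 15) to 8 (deposited table) beside 5, and other targets lower were 2 with normexp or median scaling beside 4. Irf8 was not called with normexp or median scaling. Low signal limits Ifng, Gm4841, Gbp8 and Gbp2b. The causes of these changes were not tested.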

Other observations

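The 2 probes of Irgm1, of Iigp1 and of Gbp6 gave strain differences of the same sign, with 0.46 and 0.36, 0.18 and 0.30, and 0.88 and 1.27. Of these, only the probes of Gbp6 passed the test. Probes of a gene were read on the same mice, so no direction is read for Irgm1 and Iigp1. Ptpn11, a phosphatase, and Irgq, a GTPase outside the interferon inducible clusters, had every NZO mouse above every B6 mouse at log2 fold changes of 0.24 and 0.39, and Jak1 and Il18 had every NZO mouse below every B6 mouse at -0.25 and -0.30, all with adjusted p-values above the threshold (limma, 0.128, 0.0932, 0.142 and 0.116). Stat4, which relays interleukin signals that raise interferon gamma, was not well above background in the 4 NZO mice and was above it in 3 of the 4 B6 mice. Psmb8, a subunit of the immunoproteasome, read 4.35 to 4.58 in NZO and 3.60 to 4.24 in B6, a log2 fold change of 0.63 with limma adjusted p = 0.0306, below the fold change threshold, and 0.77 without B6 mouse 15 (adjusted p = 0.00426), where it was called. Both probes of Casp4, which senses bacterial lipopolysaccharide, were lower in every NZO mouse than in every B6 mouse, with -0.58 and -0.59 (adjusted p = 0.0182 and 0.00482), also below that threshold. The genes of this paragraph were chosen after their values had been seen.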
